A study of Homo sapiens with 2 samples.

Results

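Cyclins are regulatory proteins that bind and activate the cyclin-dependent kinases (CDKs), and the passage of a cell from G1 through S phase to mitosis follows the order in which these pairs are active. D-type cyclins with CDK4 or CDK6 begin the phosphorylation of the retinoblastoma protein in G1, E-type cyclins with CDK2 complete it and start DNA replication, cyclin A acts with CDK2 and CDK1 in S phase and G2, and cyclin B1 with CDK1 drives mitosis. In leukemias with a KMT2A rearrangement CDK6 is a known dependency, and the D-type cyclins respond to growth factor signalling.

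The 10 genes described here are CCND2, CCND3, CCNE1, CCNE2, CCNA2, CCNB1, CDK1, CDK2, CDK4 and CDK6, taken by name from the 50868 genes of the deposited table. RNA-seq was performed on MOLM-13, a human acute myeloid leukemia (AML) cell line with the KMT2A::MLLT3 fusion, to ask which adhesion and proliferation genes change with UNC5B, a netrin receptor. There was 1 library of cells given the empty lentiviral vector (Vector, OE-Control) and 1 library of cells given the UNC5B vector (OE-UNC5B). According to the methods, the UNC5B plasmid carried a CMV promoter, a FLAG tag and mCherry, infected cells were selected with puromycin, and cells grew in 1640 medium with fetal bovine serum. Both groups share the MOLM-13 background.

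The libraries held 13715566 (Vector) and 15637137 (OE-UNC5B) counted reads. UNC5B (ENSG00000107731) had 0 reads in both libraries, and a count of 0 allows up to 3 reads, or 0.222 CPM (counts relative to library size, scaled as below) for Vector and 0.189 CPM for OE-UNC5B. Expression from the construct cannot be seen in these counts, and all directions below rest on the label of the second library, hence the name OE-UNC5B-labelled library. Of 12 myeloid leukemia markers, 11 had at least 10 reads over both libraries and KIT had 2 and 1 reads. Their summed level was 6688 CPM in Vector and 4002 CPM in the OE-UNC5B-labelled library. LYZ, the lysozyme gene, made up most of that difference with 51742 and 23700 reads. By log2 fold change (defined below) the 11 markers went both ways, with a median of -0.16. LYZ (-1.36), MPO (-1.35) and CD38 (-1.30) were past 2-fold lower, as were 4.72% of all genes, while MEIS1 (0.90), PTPRC (0.73), HOXA9 (0.47), FLT3 (0.42) and CD33 (0.14) were above 0. Of 7 endothelial markers, CDH5, KDR, TEK, ERG and CLDN5 were at 0 in both libraries, VWF had 1 and 2 reads, and PECAM1, which myeloid cells also express, had 1626 and 1471. The 4 epithelial and embryonic kidney markers together had 5 and 2 reads, with KRT8, EPCAM and CDH1 at 0. The 5 fibroblast markers together had 5 and 1 reads, with DCN, POSTN and FBLN1 at 0. The 6 lymphoid markers had 266 and 427 reads, nearly all from NCAM1 and CD3D, with MS4A1 at 0. The part of the myeloid marker difference in the results below was not tested.

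With 1 library per group, no difference below has a replicate check, and no p-value is given. Log2 fold changes are the OE-UNC5B-labelled library over Vector, from reads scaled with TMM (a trimmed mean of the gene ratios) and with 0.5 reads added. The 95% intervals are exact Clopper-Pearson intervals of the reads and cover counting error only. All 10 genes passed the minimum of 10 reads over both libraries, as did 15384 genes of the table, whose median log2 fold change was -0.01, with 7610 above and 7774 below 0. A second background is the 9711 genes that reached 10 CPM in either library, which include all 10 members. Fewer cells in a phase of the cycle and less RNA per cell cannot be told apart in bulk RNA.

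Of the 10 genes, CCND2 and CDK6 were higher and CCNE2, CCNE1 and CDK1 were lower by at least 1.5-fold in the OE-UNC5B-labelled library than in Vector, and the other 5 lay between these. CCND2 and CCNE2 stood at the ends of this order, with CCND2 2.08-fold higher and CCNE2 2.62-fold lower. CCND2, CCND3, CDK4 and CDK6 all had positive log2 fold changes, from 0.06 to 1.06, with a median of 0.37, and the interval of CCND3 crossed 0. The 6 other genes all had negative ones, from -1.39 to -0.28, with a median of -0.66. Together the 10 genes took 1400 CPM of Vector and 1349 CPM of the OE-UNC5B-labelled library. Within that sum the 4 genes went from 632 to 859 CPM and the 6 others from 768 to 490 CPM. The median of all 10 genes was -0.31.

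**Figure D1:**
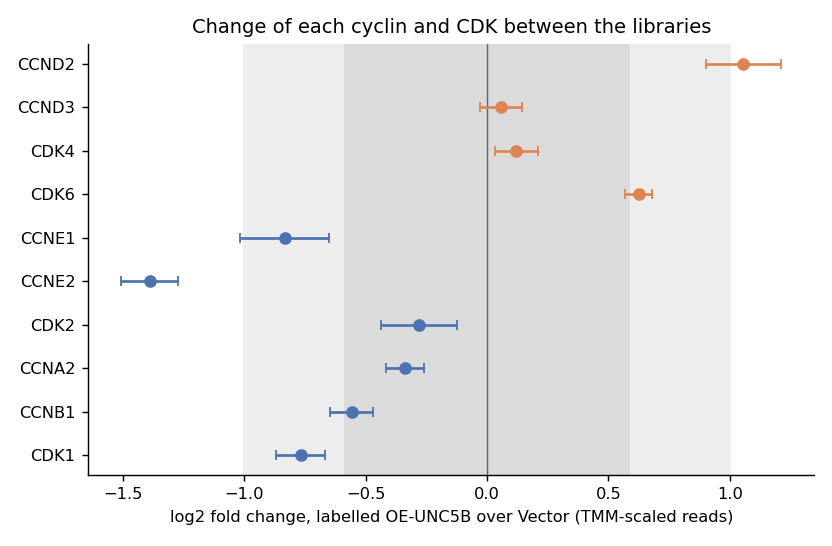
Log2 fold change of each gene (points) with its 95% interval from the reads (bars, counting error only), 1 library per group; the inner grey band spans changes under 1.5-fold and the outer band those under 2-fold. CCND2 at 1.06 and CCNE2 at -1.39 lie outside the outer band, and the interval of CCND3 alone crosses 0.

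Past a 2-fold change, 1 of the 10 genes was lower (CCNE2) and 1 was higher (CCND2). Among all 15384 genes with at least 10 reads, 4.72% were lower and 5.27% were higher by this rule. Among genes with at least 10 CPM, 1.74% were lower and 2.46% were higher. Past a 1.5-fold change, 3 of the 10 genes were lower (CCNE2, CCNE1 and CDK1), against 12.5% of all genes and 7.94% of genes with at least 10 CPM. By the same rule 2 were higher (CCND2 and CDK6), against 12.9% of all genes and 8.53% of genes with at least 10 CPM. CCNB1, at -0.56, lay just short of the 1.5-fold line, and CDK6, at 0.62, lay just past it.

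**Figure D2:**
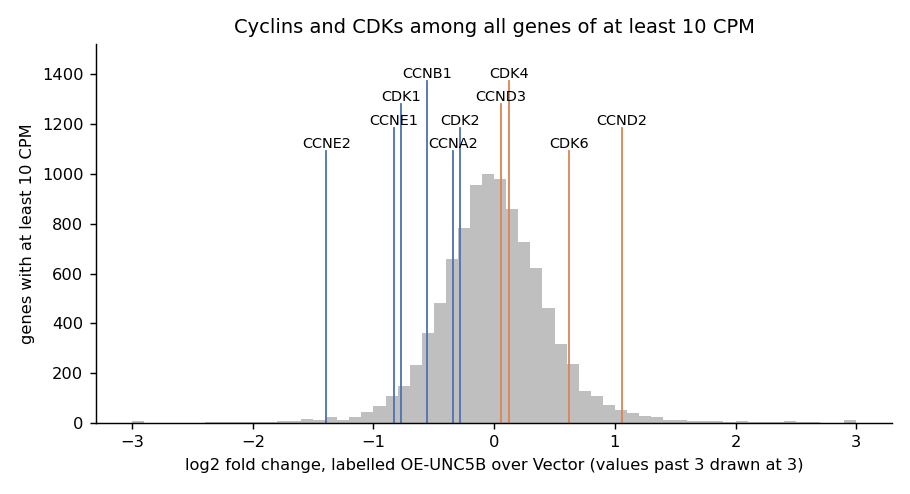
Histogram of log2 fold changes of the 9711 genes that reached 10 CPM in either library (y axis, number of genes), with the 10 cyclin and CDK genes drawn as lines. Of these genes, 0.721% lay below CCNE2 and 2.16% lay above CCND2, while CCND3 and CDK4 sat near the middle of the distribution.

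Sequences before the transcription start are shown for the 3 genes of S phase to mitosis that were lower and for CDK6, which was higher, so that the letters of known cell cycle promoter motifs can be compared. Many genes of late cell cycle expression carry a cell cycle homology region (CHR), which the MuvB complex binds, and CCAAT boxes, which NF-Y binds. Each line gives 120 bases before a RefSeq start (GRCh38.p14), 5′ to 3′ along the strand of the gene. CDK1 and CDK6 each have another start that is not shown. The 120 bases before the other start of CDK1 hold none of the marked letters. Capitals mark CHR letters (TTTGAA or TTCGAA or TTTAAA) and CCAAT boxes (CCAAT, or ATTGG when read from the opposite strand). CCNB1 is from chr5:69167030-69167149 on the plus strand, CDK1 from chr10:60778358-60778477 on the plus strand, CCNA2 from chr4:121823884-121824003 on the minus strand and CDK6 from chr7:92836574-92836693 on the minus strand.
CCNB1: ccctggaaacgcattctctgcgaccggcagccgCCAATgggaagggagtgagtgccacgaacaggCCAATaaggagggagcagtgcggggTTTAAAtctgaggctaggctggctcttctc
CDK1: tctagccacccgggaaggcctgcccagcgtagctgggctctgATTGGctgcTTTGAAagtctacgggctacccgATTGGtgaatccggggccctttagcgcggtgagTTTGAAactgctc
CCNA2: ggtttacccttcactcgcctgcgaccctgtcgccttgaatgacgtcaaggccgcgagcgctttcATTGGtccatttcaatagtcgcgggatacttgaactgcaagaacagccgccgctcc
CDK6: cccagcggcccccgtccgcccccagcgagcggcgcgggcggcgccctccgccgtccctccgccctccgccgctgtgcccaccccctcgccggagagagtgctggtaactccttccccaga

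The windows searched run from 250 bases before to 50 bases after a start, on both strands, and 7 of the 10 genes matched with 11 starts. CCND2, CCNE2 and CDK2 had no promoter among those available and were not searched. CCNB1 had CCAAT boxes beginning 87 and 55 bases before its start and a CHR match 30 bases before it. CDK1 had a CCAAT box and a CHR match in the windows of both its starts. CCNA2 had a CCAAT box 56 bases before its start and none of the 3 CHR spellings searched. Its printed line holds cttgaa, which is close to TTTGAA but was not among the spellings searched. A CHR of another spelling is therefore not excluded at CCNA2 or the other genes. CCNE1 had the letters TTTAAA 28 bases before its start and no CCAAT box, and whether these letters act as a CHR was not tested. Neither CDK6 window held either motif, nor did the CDK4 window, and 2 of the 3 CCND3 windows held a CCAAT box. Among the 7 genes searched, E2F letters (TTTCCCGC, TTTGGCGC, TTTCGCGC, TTTGCCGC or TTTCCCGG) were found only at CDK1, as TTTCGCGC. Over all 35116 promoters of that length, 25.1% held CHR letters, 34.6% a CCAAT box, 9.70% both and 4.74% E2F letters. The 973 expressed genes with both CHR letters and a CCAAT box had a median log2 fold change of -0.0038, against -0.0049 over the 10009 expressed genes with a promoter in the table.

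CCND2 and CCND3 encode the D-type cyclins that sense mitogens, and CCND2 differed between the libraries far more than CCND3. CCND2, on chromosome 12 from 4273772 to 4305350 (plus strand, 5 exons in the main transcript), had 479 reads in Vector and 1174 in the OE-UNC5B-labelled library. Its deposited FPKM (reads relative to gene length and to library size) was 4.51 and 9.70. The log2 fold change was 1.06, with a 95% interval of 0.90 to 1.21, so its interval runs to both sides of a 2-fold change. CCND3, on chromosome 6 from 41934933 to 42050357 (minus strand, 5 exons), had 1956 and 2397 reads and an FPKM of 9.46 and 10.2. Its log2 fold change of 0.06 (-0.03 to 0.14) could not be told from 0 by counting error alone.

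The reads of CCND2 relative to CCND3, a ratio that no scaling of the libraries can move, were 2.00 times as high in the OE-UNC5B-labelled library as in Vector (1.77 to 2.26). The exons of CCND2 share 12.5% of their bases with another annotated gene on the same strand, ENSG00000285901, which is not analysed here. With a trend on GC content and transcript length subtracted, CCND2 was at 0.93, under 2-fold. With 1 added to the FPKM values it was also under 2-fold, at 0.96.

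CDK6 and CDK4 encode the kinase partners of the D-type cyclins. CDK6, on chromosome 7 from 92604921 to 92836594 (minus strand, 8 exons), had the most reads of the 10 genes, with 4273 in Vector and 7760 in the OE-UNC5B-labelled library. Its FPKM was 22.9 and 36.5, and its log2 fold change was 0.62 (0.57 to 0.68), a 1.54-fold difference. CDK6 has the longest main transcript of the 10, at 11663 nt, and with the same trend subtracted its log2 fold change was 0.32, under 1.5-fold. CDK4, on chromosome 12 from 57747727 to 57756013 (minus strand, 8 exons), had 1816 and 2327 reads and an FPKM of 17.7 and 19.9. Its log2 fold change was 0.12 (0.03 to 0.21).

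The read ratio of CDK6 to CDK4 was 1.42 times as high in the OE-UNC5B-labelled library (1.32 to 1.52). With the same trend taken out of both, the log2 fold changes of CDK6 (0.32) and CDK4 (0.21) lay close together. CDK4 shares 1369 exon bases, 44.2% of its own, with TSPAN31 on the opposite strand, and the sources used here do not state whether counting used strand. TSPAN31, a tetraspanin gene, had 74 and 140 reads, so CDK4 had far more reads than its neighbour in both libraries.

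CCNE1 and CCNE2 encode the E-type cyclins, which activate CDK2 at the start of S phase and are themselves targets of E2F factors. CCNE2 (minus strand, 12 exons in the main transcript) had 1941 reads in Vector and 872 in the OE-UNC5B-labelled library, and an FPKM of 19.3 and 7.59. Its log2 fold change was -1.39 (-1.51 to -1.28), and the whole interval lay past 2-fold. CCNE1, on chromosome 19 from 29811898 to 29824308 (plus strand, 12 exons), had 617 and 408 reads and an FPKM of 9.26 and 5.37. Its log2 fold change was -0.83 (-1.02 to -0.65), a 1.78-fold lower value whose interval reached just past 2-fold. Both E-type cyclins were lower, CCNE2 the more so, and the read ratio of CCNE2 to CCNE1 was 0.680 times that in Vector (0.584 to 0.791).

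CCNE2 shares 1629 exon bases, 37.0% of all its annotated exon bases, with INTS8, an Integrator complex gene on the opposite strand. Of the 75-base stretches of its main transcript, 55.7% also occur in INTS8 transcripts when read from either strand. INTS8 had 2258 reads in Vector and 2489 in the OE-UNC5B-labelled library, a log2 fold change of -0.10 (-0.18 to -0.01). The ratio of CCNE2 to INTS8 reads, a pair chosen after the values were seen, was 0.408 times that in Vector (0.369 to 0.450). Reads of the shared bases cannot be assigned without knowing the use of strand, and their part in the value of CCNE2 was not tested. In a second pair chosen after the values were seen, CCND2 had 0.247 times the reads of CCNE2 in Vector and 1.35 times in the OE-UNC5B-labelled library.

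CDK2, the kinase partner of the E-type cyclins and of cyclin A, differed little. On chromosome 12 from 55966769 to 55972784 (plus strand, 7 exons), it had 676 and 656 reads and an FPKM of 4.31 and 3.67. Its log2 fold change was -0.28 (-0.44 to -0.12). Of genes with at least 10 CPM, 24.4% lay below it. The read ratio of CCNE2 to CDK2 was 0.463 times that in Vector (0.404 to 0.531), so the cyclin was lower by more than its kinase. CDK2 shares 2.3% of its exon bases with PMEL on the opposite strand, which had 3 and 6 reads, and 14.5% with an antisense RNA that had 0 reads in both libraries.

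**Figure D3:**
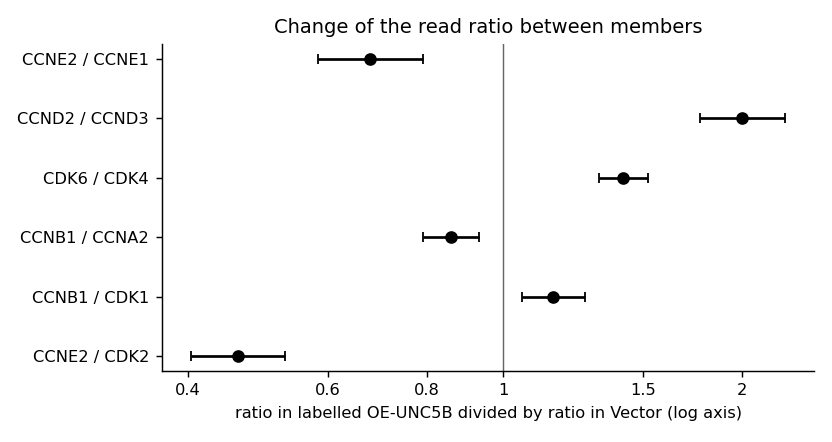
Change of the read ratio of 6 pairs of genes between the libraries, on a log axis (points), with exact 95% intervals from the reads (bars); 1 means the same ratio in both. CCND2 over CCND3 at 2.00 and CCNE2 over CDK2 at 0.463 are the 2 pairs farthest from 1.

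CCNA2, CCNB1 and CDK1 encode the cyclins and the kinase of S phase to mitosis, and all 3 were lower in the OE-UNC5B-labelled library by less than 2-fold. CCNA2, on chromosome 4 from 121816444 to 121823933 (minus strand, 8 exons), had 2763 reads in Vector and 2575 in the OE-UNC5B-labelled library. Its FPKM was 44.2 and 36.1, and its log2 fold change was -0.34 (-0.42 to -0.26). CCNB1, on chromosome 5 from 69167010 to 69178245 (plus strand, 9 exons), had 2375 and 1900 reads and an FPKM of 44.4 and 31.2. Its log2 fold change was -0.56 (-0.65 to -0.47). CDK1, on chromosome 10 from 60778331 to 60794852 (plus strand, 8 exons), had 1989 and 1376 reads and an FPKM of 20.3 and 12.3. It was the lowest of the 3, with a log2 fold change of -0.77 (-0.87 to -0.67), or 1.70-fold lower.

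The ratios of CCNB1 to the others also differed between the 2 libraries by more than counting error. The read ratio of CCNB1 to CCNA2 was 0.858 times that in Vector (0.791 to 0.931), and that of CCNB1 to CDK1 was 1.16 times (1.05 to 1.27). CCNA2 shares 254 exon bases, 9.2% of its own, with EXOSC9, an RNA exosome gene on the opposite strand, which had 640 and 936 reads and a log2 fold change of 0.31 (0.16 to 0.46). CCNB1 and CDK1 share exon bases with no other annotated gene.

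**Figure D4:**
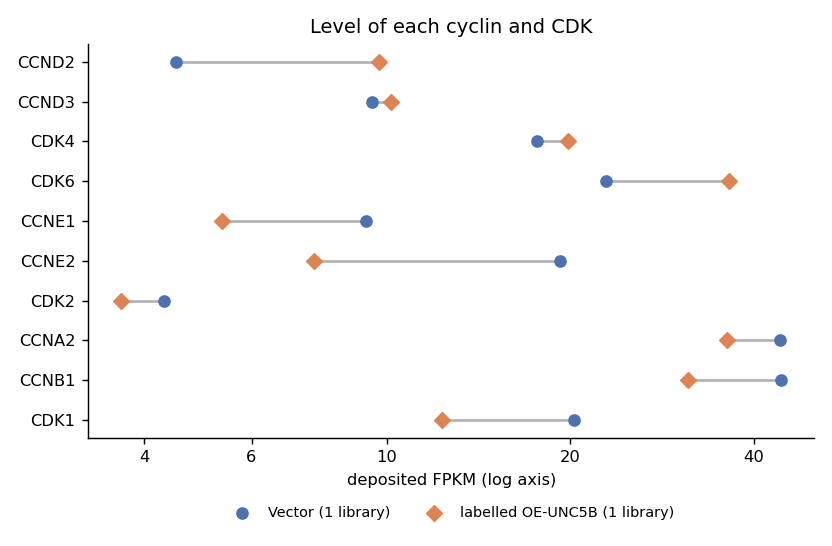
Deposited FPKM of each gene (log axis) in Vector (circles) and in the OE-UNC5B-labelled library (diamonds), 1 library each, joined by a line. CCND2, CCND3, CDK4 and CDK6 have the diamond on the right and the 6 others have it on the left, with the longest lines for CCNE2 (19.3 and 7.59) and CCND2 (4.51 and 9.70).

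By deposited FPKM, CCNB1 and CCNA2 had the highest levels in Vector, at 44.4 and 44.2, and CDK2 the lowest, at 4.31. In the OE-UNC5B-labelled library, CDK6 (36.5), CCNA2 (36.1) and CCNB1 (31.2) were highest and CDK2 (3.67) was lowest. Neighbours in this order such as CCNB1 and CCNA2 in Vector differed by little, and with 1 library their order has no check. The order also depends on the gene length behind the FPKM values. For CCND3 the reads and FPKM imply a length of 15071 nt, against 2026 nt for its main transcript. With FPKM recomputed per kilobase of main transcript, CDK4 (79.8) and CCND3 (75.7) were highest in the OE-UNC5B-labelled library, and CCNB1 (85.3) and CDK1 (76.8) were highest in Vector. CCND2 was then lowest in both libraries, at 5.38 and 11.6. This second scale was added after the values were seen, and the length cancels in the log2 fold changes from scaled reads and in the changes of read ratios.

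Other genes that act on these cyclins and CDKs were described by lists, beside the shares of all genes past 1.5-fold (12.5% lower and 12.9% higher, or 7.94% and 8.53% from 10 CPM). Of the other cell cycle cyclins and CDKs, 4 of 5 had at least 10 reads, and all 4 were below 0, with a median log2 fold change of -0.70, which was -0.34 with 1 added to the FPKM values and -0.28 from 10 CPM on. CCND1, the third D-type cyclin, was barely expressed, with 36 and 22 reads and a log2 fold change of -0.93 (-1.78 to -0.14). CCNB2, the second mitotic cyclin B, had 1043 and 1214 reads and was near 0, at -0.02 (-0.14 to 0.10), in contrast to CCNB1. CCNA1, the cyclin A of germ cells and some leukemias, had 3329 and 2703 reads and a log2 fold change of -0.54. CDK3 had 79 and 51 reads, and CCNB3 had 4 and 1 reads and no fold change is given.

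Of the 10 genes of CDK activation and phosphate control, 8 were below 0, with a median of -0.44 and 2 past 1.5-fold, both lower, against 12.5% of all genes. PKMYT1, a kinase that places inhibitory phosphates on CDK1, had 739 and 534 reads, a log2 fold change of -0.71 (-0.87 to -0.54). MNAT1, a subunit of the CDK-activating kinase, was the highest, with 264 and 387 reads, at 0.31 (0.09 to 0.55). Of 8 CDK inhibitor genes, 5 had at least 10 reads, with a median of 0.11, which turned to -0.46 without the minimum of reads. CDKN3, a phosphatase that acts on CDKs, had 483 and 293 reads, a log2 fold change of -0.96 (-1.17 to -0.75). CDKN2D, an inhibitor of CDK4 and CDK6, had 130 and 213 reads, at 0.47 (0.15 to 0.80). CDKN1A, the p21 gene, had 3716 and 4522 reads and stood at 0.05 (-0.02 to 0.11). CDKN1C, CDKN2A and CDKN2B had at most 4 reads in a library.

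The 13 pocket protein and E2F genes had a median of 0.01, with 7 above and 6 below 0, and the median turned to -0.16 with the fitted trend taken out. E2F6, a repressive E2F factor, was the highest, with 133 and 281 reads, at 0.84 (0.54 to 1.15). E2F4 was the lowest, with 1281 and 1010 reads, at -0.58 (-0.70 to -0.46). The 7 genes of the MuvB complex and its mitotic partners had a median of -0.01. MYBL2, the B-Myb factor that joins MuvB in S phase, was the lowest, with 4732 and 3674 reads, at -0.60 (-0.66 to -0.54), and LIN9 was the highest, at 0.22.

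Of the 14 cyclin degradation genes, 11 were below 0, with a median of -0.36, and 5 were lower by at least 1.5-fold, against 12.5% of all genes. UBE2C, the ubiquitin-conjugating enzyme of the anaphase-promoting complex, was the 1 gene past 2-fold, with 574 and 295 reads, at -1.20 (-1.40 to -0.99), against 4.72% of all genes lower by 2-fold. FBXW7, which directs cyclin E to degradation, was the highest, with 357 and 518 reads, at 0.30 (0.10 to 0.50). The 12 transcriptional cyclins and CDKs, most of which act on RNA polymerase II or splicing, stood at a median of 0.05; 3 of them were higher, against 12.9% of all genes, and 0 lower by 1.5-fold. CDK19, a Mediator kinase, was the highest, with 753 and 1640 reads, at 0.89 (0.76 to 1.01), and CCNK was the lowest, at -0.16. No member of these 7 lists was higher by 2-fold, a rule that 5.27% of all genes and 2.46% of genes with at least 10 CPM passed.

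**Figure D5:**
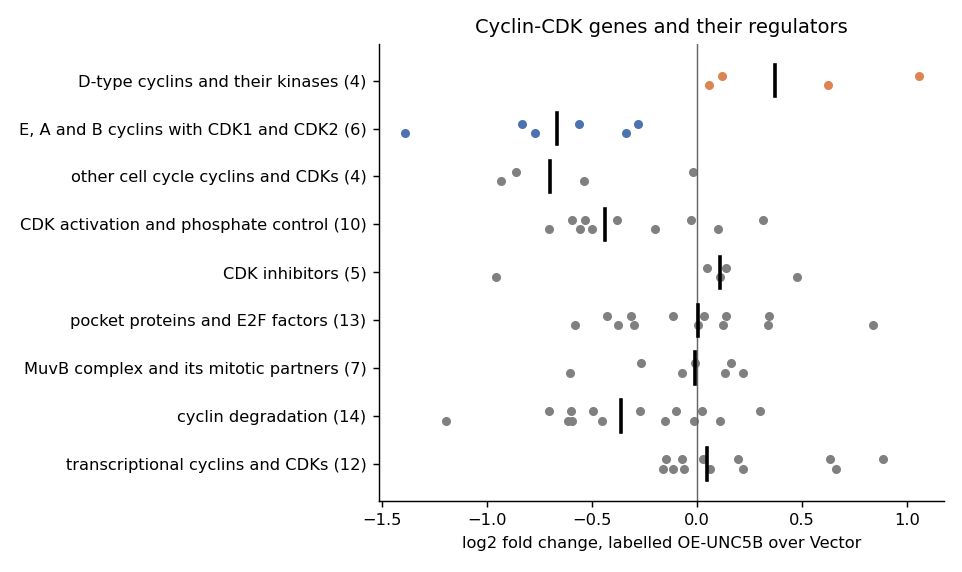
Log2 fold change of each gene with at least 10 reads over both libraries (points), by list, with the number of genes in parentheses and the list median as a vertical bar. The medians run from -0.70 (other cell cycle cyclins and CDKs, at -0.28 from 10 CPM on) to 0.37 (D-type cyclins and their kinases). That row holds CCND2, CCND3, CDK4 and CDK6, which lie above 0, while the 6 genes of the second row lie below it. CCND1, also a D-type cyclin but barely expressed, is drawn with the other cell cycle cyclins and CDKs, at -0.93.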

How the data were processed

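Each gene has a raw count and an FPKM value, both deposited by the authors, for 1 Vector and 1 OE-UNC5B-labelled library. The submitters' processing notes name HISAT2 2.0.4, StringTie 1.3.0 and GRCh38. Settings, the annotation's release and whether strand was used are not given in the sources used here. Members and gene lists were chosen with earlier results of these data known.

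TMM factors (edgeR 4.0.16 in R 4.3.3) scaled the counts, with 0.5 reads added. Genes were kept from 10 reads over both libraries. The quasi-likelihood test of edgeR cannot be fitted to 1 library per group, nor can DESeq2, so genes were called by fold alone (2 and 1.5) and intervals are exact 95% intervals of the reads (scipy 1.17.1). PCR duplicates were not told apart, so intervals cover counting error only. Named from each cell cycle list were genes past 2-fold and the largest rise and fall among genes with at least 50 reads. Other list genes were named after their values were seen.

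Exons, lengths and overlaps came from GENCODE 44, in which 49659 of 50868 identifiers were found, 99.92% of them at an overlapping GRCh38 locus. Promoters came from RefSeq. The procedure was tested on simulated counts that held counting error only, so this check does not cover variation between replicate libraries. The alternatives used DESeq2 1.42.0 size factors, library totals, FPKM with 0.1 or 1 added, 2 reads added, other minimums, and a GC content and length trend subtracted.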

Additional observations from a re-analysis of the deposited data

How the results depend on the processing

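No paired analysis was possible because each group had a single library, and for that reason no library could be left out. All 60 values of the 10 genes under 6 alternatives kept their sign. CCNE2 ranged from -1.51 to -1.24, CCND2 from 0.93 to 1.10, CDK6 from 0.32 to 0.67 and CCND3 from 0.06 to 0.16, its highest value with a GC content and length trend taken out.

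The number of the 10 genes higher by 2-fold was 0 with 1 added to FPKM and 0 after the fitted trend (GC content, transcript length) was taken out, and by 1.5-fold it was 1 with that trend subtracted. Over all genes, 2-fold calls were 161 higher and 123 lower with 1 added to FPKM, and 430 lower with 0.1 added. They were 3030 and 3068 without a filter, 361 and 296 with at least 50 reads, and 239 and 169 with at least 10 CPM, where the number of genes kept differs by construction. The 1.5-fold calls were 744 higher and 561 lower with 1 added to FPKM, 4406 and 4648 without a filter, 1226 and 1113 with at least 50 reads, and 828 and 771 with at least 10 CPM. Among list medians, the other cell cycle cyclins and CDKs were at -0.34 with 1 added to FPKM and at -0.28 with at least 10 CPM, which keeps fewer genes. The CDK inhibitors were at -0.46 without a filter, which adds genes of at most 6 reads. With the trend subtracted, the pocket proteins and E2F factors were at -0.16 and the D-type cyclins and their kinases at 0.27. For the FPKM and trend changes the cause was not tested. The other 196 of 225 values stayed within set limits. For genes and ratios the limit was the interval from the reads, and for counts it was 1.5 times. For medians it was the typical reach of the interval of 1 gene, which is wider than the error of a median. Medians near 0 could change sign within it. The transcriptional cyclins and CDKs went from 0.05 to -0.01 with the trend subtracted, and all genes from -0.01 to 0.04 with library totals. Depth limits CCND1, CDKN1C, CDKN2A, CDKN2B and CCNB3, which had few reads.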
